A study of Mus musculus with 15 samples.

Results

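The 42 genes described here build the mitotic chromosome, the spindle and the contractile ring, or run the kinases and the degradation machinery that move a cell through division. They were chosen by name, as spindle, kinetochore, condensin, mitotic kinase and cytokinesis genes, and all 42 were found among the 39331 genes of the count table. All 42 also passed the filter on low counts, which left 16437 genes for testing. They were measured by poly(A) RNA sequencing of left ventricles from C57BL/6 mice with an experimental myocardial infarction. Adult hearts were sampled with a transfer of adult T cells (4 libraries, called adult recipients below) and as controls (3 libraries, adult controls). Neonatal hearts were likewise sampled with adult T cells (4 libraries, neonatal recipients) and as controls left untreated (4 libraries, neonatal controls). Every group, controls included, had the infarct, so no uninjured heart is part of the comparisons. The protocol names 36 h after infarction in a sentence on neonatal hearts, without saying whether this was the time of transfer or of collection, and the labels give neither a separate time for the adult hearts nor the ages, the sexes, the T cell dose or the number of animals per library. The study's title concerns adult T cells and regeneration of the neonatal heart, and the 4 groups allow T cell transfer to be examined at each age and the ages to be compared.

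Entry into mitosis is driven by CDK1 bound to cyclins A and B, with Polo-like and Aurora kinases. Condensin and topoisomerase II then compact and untangle the chromosomes, kinetochores attach them to the spindle, the anaphase-promoting complex marks cyclin B and securin for destruction, and the central spindle places the ring that cuts the cell. Most of these genes are transcribed late in the cell cycle through the DREAM and MuvB complexes, which bind an element called CHR, together with NF-Y at CCAAT boxes. In the mouse heart, cardiomyocytes still divide around birth and largely leave the cell cycle soon afterwards, whereas fibroblasts, endothelial cells and leukocytes can divide in injured hearts of any age.

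All members were well covered. Libraries held 21871617 to 34302786 counts, a single member had between 121 and 6024 counts in a library, and 39 of 42 members lay above the median level of the genes tested, 16.7 CPM (counts scaled to the library's total). Levels were also averaged over the 15 libraries and divided by the gene's longest annotated transcript in kilobases. On this scale Ccna2 had the highest level at 31.8 CPM per kb, followed by Ube2c at 27.8, Cdca3 at 27.6 and Ccnb2 at 27.4. Aspm had the lowest at 2.31. Which transcripts were expressed was not measured, so this order depends in part on the annotation. Summed over members, the level was 1585 ± 150.1 CPM in adult recipients, 1693 ± 218 CPM in adult controls, 2106 ± 95.8 CPM in neonatal recipients and 2188 ± 223 CPM in neonatal controls (SD, n = 4, 3, 4 and 4). Every adult library lay below every neonatal one. Being bulk tissue, these libraries cannot tell fewer dividing cells from less RNA per dividing cell.

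The members moved together from library to library, so single libraries weigh on their comparisons. Neonatal control 8 had the highest level of all 8 neonatal libraries in 36 of 42 members. That library also stood apart over all genes, at 4.3 on the first principal component (53.2% of variance), against 37.8 to 54.7 for the other neonatal libraries and -59.3 to -34.2 for the adult ones. Among adult controls, library 6 was the highest for 36 members and library 7 the lowest for 36, and among adult recipients library 4 was the highest for 35. Levels in the libraries are listed below in the order of the library numbers, 1 to 4 for adult recipients, 5 to 7 for adult controls, 1, 2, 4 and 5 for neonatal recipients and 6 to 9 for neonatal controls.

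**Figure D1:**
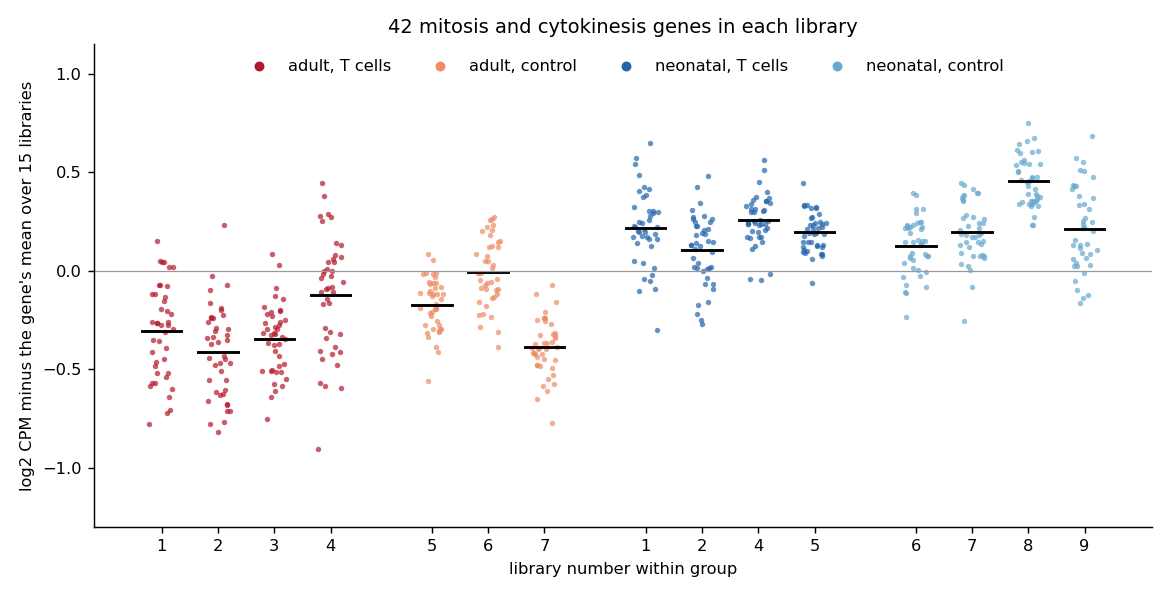
Each point is 1 of 42 members in 1 library, as log2 CPM minus that gene's mean over 15 libraries, and each black line is the mean over members. The adult libraries lie below 0 on average, with adult control 6 closest to it at -0.01, the neonatal libraries lie above 0, and neonatal control 8 is the highest at 0.45.

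The promoters of these genes are shown because 2 short motifs recur in most of them. RefSeq promoters on GRCm38.p6 (250 bases before to 50 after the start) were found for 36 of 42 members, giving 38 promoters; Aurkb, Incenp, Ccna2, Kif20a, Smc4 and Tpx2 were not matched. The CHR letters TTTGAA, on either strand, occurred in 31 of 38 member promoters (81.6%), against 17.9% of the 32851 promoters in the table. The CCAAT letters, on either strand, occurred in 30 (78.9%, against 37.4%), and both in 27 (71.1%, against 6.95%). Of 41 CHR matches, 30 lay within 50 bases of the start, in 26 genes. No CHR letters were found in the window of Birc5, Bub1, Ccnb1, Cenpe, Ncaph, Nuf2 and Nusap1, which says only that the letters are absent there. The 4 promoters below belong to the members with the highest CPM among those with CHR letters. Each is printed from 250 bases before to 30 after the start in the direction of transcription, with TTTGAA and CCAAT, and their reverse complements TTCAAA and ATTGG, in capitals.
Mki67 promoter, chr7:135716350-135716629, minus strand: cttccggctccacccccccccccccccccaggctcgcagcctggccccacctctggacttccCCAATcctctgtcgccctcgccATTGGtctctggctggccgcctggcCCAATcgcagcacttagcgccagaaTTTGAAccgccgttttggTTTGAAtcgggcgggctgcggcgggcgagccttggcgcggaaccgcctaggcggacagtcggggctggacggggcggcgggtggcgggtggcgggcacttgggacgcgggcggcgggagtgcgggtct
Top2a promoter, chr11:99024160-99024439, minus strand: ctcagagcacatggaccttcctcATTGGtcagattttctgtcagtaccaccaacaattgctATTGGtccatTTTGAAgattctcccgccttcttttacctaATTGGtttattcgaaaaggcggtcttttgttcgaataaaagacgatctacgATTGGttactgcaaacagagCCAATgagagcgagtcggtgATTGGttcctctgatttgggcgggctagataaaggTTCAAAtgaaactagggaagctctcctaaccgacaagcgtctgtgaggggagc
Ncapd2 promoter, chr6:125191557-125191836, minus strand: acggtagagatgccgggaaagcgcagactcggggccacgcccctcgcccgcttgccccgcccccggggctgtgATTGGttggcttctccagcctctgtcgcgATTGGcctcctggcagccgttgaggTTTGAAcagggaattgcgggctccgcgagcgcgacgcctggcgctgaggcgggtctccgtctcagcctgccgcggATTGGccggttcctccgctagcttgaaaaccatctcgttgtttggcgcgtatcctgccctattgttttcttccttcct
Cenpa promoter, chr5:30666636-30666915, plus strand: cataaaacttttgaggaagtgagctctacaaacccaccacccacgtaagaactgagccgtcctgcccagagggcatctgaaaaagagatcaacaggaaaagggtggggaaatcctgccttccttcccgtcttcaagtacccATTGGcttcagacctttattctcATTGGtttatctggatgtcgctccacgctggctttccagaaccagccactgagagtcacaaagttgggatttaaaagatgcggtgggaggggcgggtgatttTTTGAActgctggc
In Mki67, 2 CHR matches lie 116 and 98 bases before the start with 3 CCAAT matches upstream of them. Top2a has CHR matches 179 and 23 bases before the start and 6 CCAAT matches, Ncapd2 has 1 CHR match 123 bases before the start and 3 CCAAT matches, and Cenpa has 1 CHR match beginning 17 bases after the start and 2 CCAAT matches. The starts used for Mki67, Top2a, Ncapd2 and Cenpa lie inside the gene spans of the count table, as for Ncapd2 at chr6:125168007-125192100. A letter match is a description and not a binding site, and the data hold no measurement of binding.

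**Figure D2:**
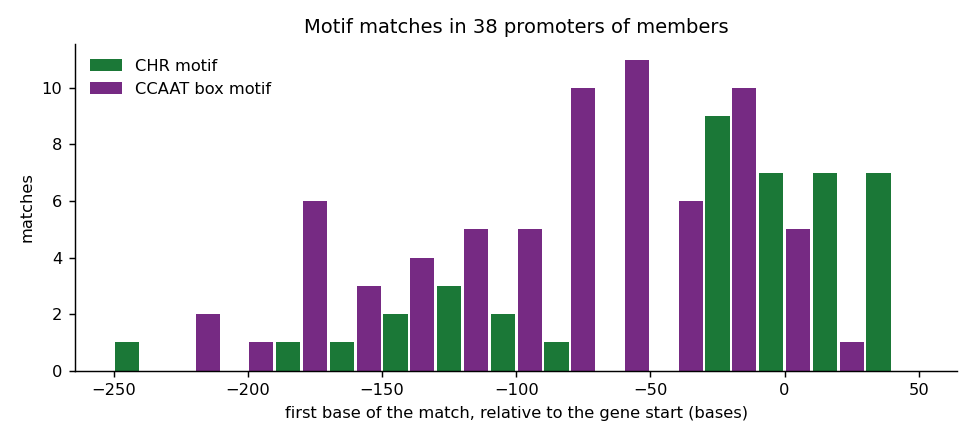
Bars count the matches of the CHR letters (green) and the CCAAT letters (purple) in 38 member promoters by the distance of their first base from the gene start. CHR matches gather near the start, 30 of 41 within 50 bases of it, and CCAAT matches lie more upstream, with 22 of 69 within 50 bases.

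RNA of most members was lower in adult than in neonatal infarcted hearts, both with and without T cells. Among T cell recipients, 32 of 42 members (76.2%) were lower in adult hearts and 1, Cenpa, was higher at an adjusted p under 0.05 (edgeR's quasi-likelihood test, Benjamini-Hochberg adjustment over all genes). In that comparison 50.7% of all genes tested passed the threshold in either direction, 26.9% were lower and 23.8% were higher. Among controls, 30 of 42 members (71.4%) were lower in adult hearts and none was higher, against 30.9% of all genes in either direction and 15.4% lower. The median log2 fold change of the members, adult over neonatal, was -0.50 in recipients and -0.44 in controls, against -0.03 and -0.02 over all genes. Negative values were found for 39 members in recipients and 41 in controls, against 52.8% and 52.1% of all genes. CPM ranges did not overlap between the ages for 30 members in recipients (71.4%, against 45.4% of all genes) and for 25 in controls (59.5%, against 34.6%).

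The 2 age comparisons share no library, and 29 members were lower in adult hearts in both. These are 90.6% of the 32 in recipients and 96.7% of the 30 in controls. Over the 42 members, 40 had the same sign in both. The log2 fold changes had a Pearson r of 0.87 and a Spearman rho of 0.83 across genes, which are not independent replicates. Over all genes, 26.9% were lower in adult recipients and 15.4% in adult controls. The overlap, the shared signs and the correlations were not computed over all genes, so none is shown to be particular to the members. The 8 members past the threshold in neither were Ccnb2, Cdc20, Ube2c, Cdca3, Aurka, Cdca8, Kif4 and Ckap2l. In controls the count rests in part on single libraries. It was 20 without adult control 7 and, without neonatal control 8, 24 members were lower and Cenpa was higher (log2 0.31, adjusted p = 0.0169). With the transcript length trend of each library removed, 27 members were lower in recipients and 24 in controls, against 19.7% and 13.2% of all genes. The log2 fold changes of the members had a Spearman correlation with transcript length of -0.55 in recipients and -0.23 in controls, and of -0.29 and -0.20 with the trend removed.

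**Figure D3:**
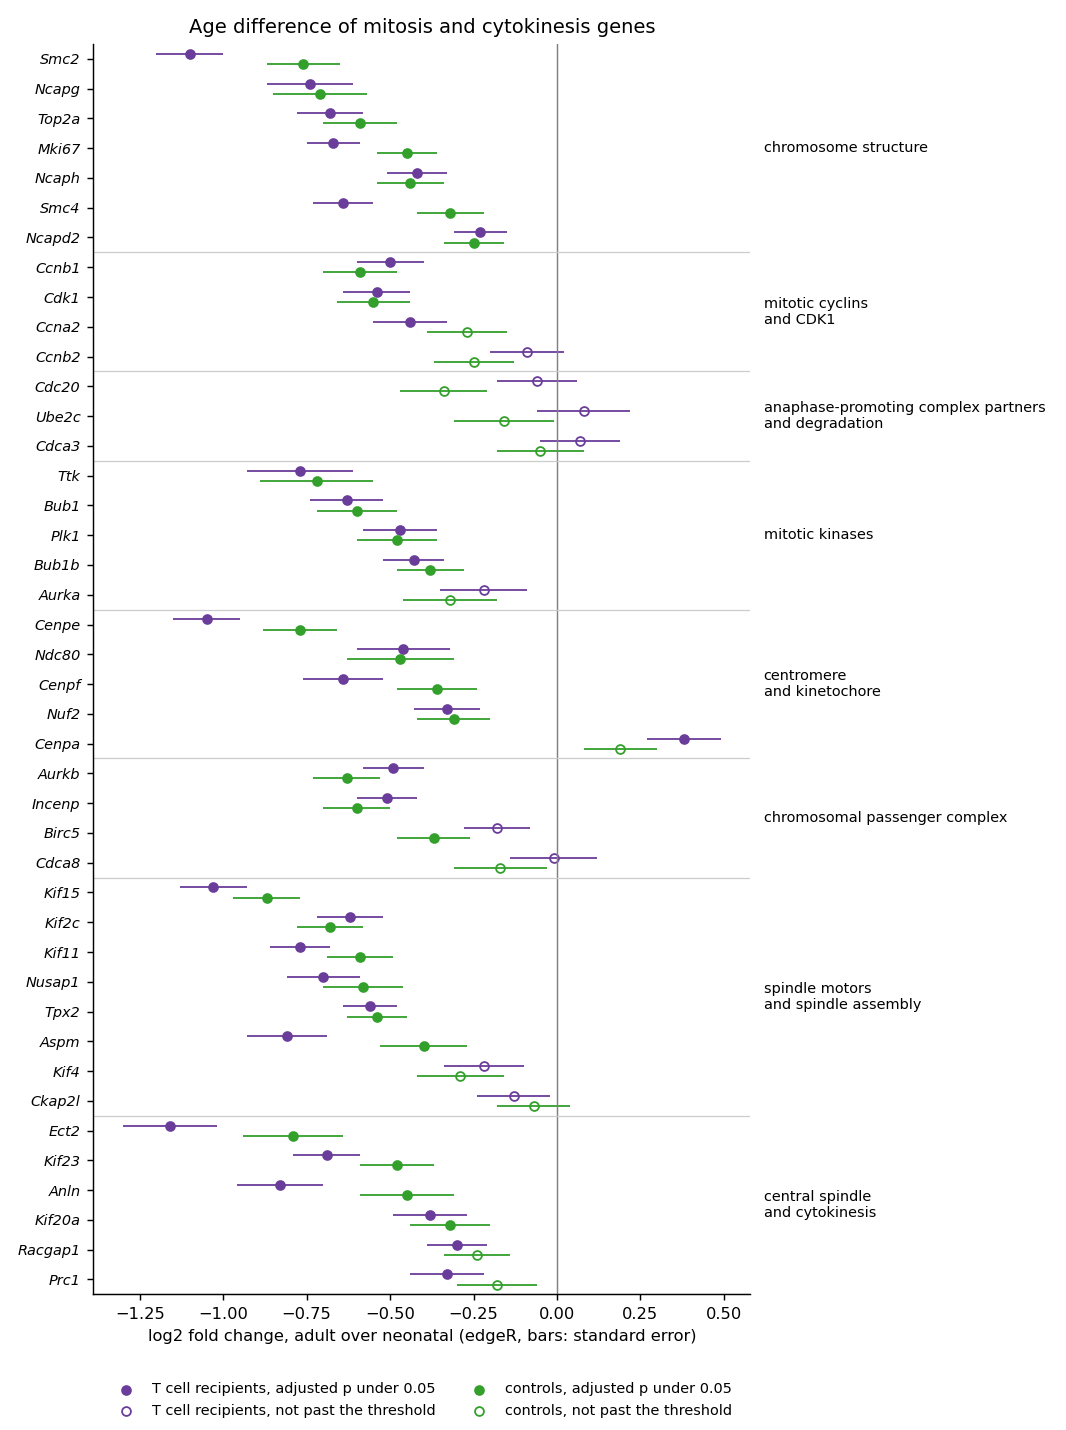
Log2 fold change, adult over neonatal, of each member by role, in T cell recipients (purple) and in controls (green), with standard errors. Filled points passed an adjusted p of 0.05, as did 50.7% of all genes in recipients and 30.9% in controls. All 7 chromosome structure genes did so in both comparisons. None of the 3 anaphase-promoting complex and degradation genes did in either, and Cenpa alone passed on the side above 0, in recipients.

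The genes that shape the mitotic chromosome were lower in adult hearts: all 7 passed the threshold in both comparisons. Of all genes, 26.9% were lower in recipients and 15.4% in controls. The median log2 fold change of the 7 was -0.67 in recipients and -0.45 in controls. With the transcript length trend removed, 6 of 7 were lower in each, with medians of -0.49 and -0.39, against 19.7% and 13.2% of all genes lower. Mki67, the Ki-67 protein that coats mitotic chromosomes and is the usual marker of cycling cells, stood at 92.9, 80.3, 84.7 and 99.9 CPM in adult recipients and 118, 123 and 107 CPM in adult controls. Neonatal levels of Mki67 were 141, 145, 146 and 137 CPM in neonatal recipients and 137, 163, 172 and 161 CPM in neonatal controls. Its levels did not overlap between the ages in either comparison, and the log2 fold change was -0.67 ± 0.08 (adjusted p = 3.27e-06) in recipients and -0.45 ± 0.09 (adjusted p = 0.000954) in controls. The value of Mki67 in recipients was -0.34 with the length trend removed. Top2a, the topoisomerase that untangles sister chromatids, stood at 75, 71.5, 77.7 and 94.9 CPM in adult recipients and 85.4, 102 and 75.1 CPM in adult controls. Neonatal levels of Top2a were 137, 119, 134 and 122 CPM in neonatal recipients and 123, 124, 149 and 132 CPM in neonatal controls. The highest adult library, adult control 6, lay below every neonatal library, and the log2 fold change was -0.68 ± 0.10 (adjusted p = 2.63e-05) in recipients and -0.59 ± 0.11 (adjusted p = 0.000605) in controls.

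Within condensin, Smc2 fell furthest in both comparisons. Smc2, one of the 2 ATPase arms, stood at 18.1, 18.4, 16.7 and 18.8 CPM in adult recipients and 23.3, 26 and 18.8 CPM in adult controls. Neonatal levels of Smc2 were 44.2, 39.3, 35.4 and 35.4 CPM in neonatal recipients and 34.5, 36.7, 40.9 and 41.9 CPM in neonatal controls. The neonatal libraries all lay above the adult ones, and the log2 fold change was -1.10 ± 0.10 (adjusted p = 2.44e-07) in recipients and -0.76 ± 0.11 (adjusted p = 6.28e-05) in controls. Smc4, the other arm, stood at 61.2, 61.8, 62.9 and 62.3 CPM in adult recipients and 82.9, 92.6 and 66.3 CPM in adult controls. Neonatal levels of Smc4 were 103, 96.3, 93.8 and 94.4 CPM in neonatal recipients and 91.7, 97.6, 116 and 97 CPM in neonatal controls. Adult recipients were below all neonatal libraries, while adult control 6 reached into the neonatal control range, and the log2 fold change was -0.64 ± 0.09 (adjusted p = 1.35e-05) in recipients and -0.32 ± 0.10 (adjusted p = 0.0162) in controls. In a fit of the control libraries alone the control value did not pass (adjusted p = 0.0666), and without adult control 7 it was -0.20 (adjusted p = 0.112). The condensin I subunits Ncapg, Ncaph and Ncapd2 had log2 fold changes of -0.74 ± 0.13, -0.42 ± 0.09 and -0.23 ± 0.08 in recipients and -0.71 ± 0.14, -0.44 ± 0.10 and -0.25 ± 0.09 in controls. Ncapd2, a large HEAT-repeat subunit, changed least of the 7 in both comparisons. Its calls were lost with the length trend removed, at -0.07 in recipients (adjusted p = 0.522) and -0.20 in controls (adjusted p = 0.112). In recipients its call was also lost without adult recipient 2 or 3 or neonatal recipient 4 or 5 (adjusted p = 0.0524 to 0.112). In controls it was lost without any one of the adult controls, neonatal control 7, 8 or 9, adult recipient 1 or neonatal recipient 5 (adjusted p = 0.0529 to 0.135).

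Of the mitotic cyclins and their kinase, Cdk1 and Ccnb1 were lower in adult hearts in both comparisons, Ccna2 in recipients, and Ccnb2 in neither. Ccna2, the cyclin of S phase and early mitosis, stood at 77.8, 72.4, 75.8 and 83.2 CPM in adult recipients and 86, 107 and 71.2 CPM in adult controls. Neonatal levels of Ccna2 were 107, 97.3, 108 and 106 CPM in neonatal recipients and 99.1, 97.9, 129 and 98.6 CPM in neonatal controls. Adult and neonatal recipients did not overlap, while adult control 6 lay above 3 of the 4 neonatal controls, and the log2 fold change was -0.44 ± 0.11 (adjusted p = 0.0024) in recipients and -0.27 ± 0.12 (adjusted p = 0.0877) in controls. The difference between these values did not pass (adjusted p = 0.632), and without adult control 6 the control value was -0.43 (adjusted p = 0.00921). Cdk1, the kinase that triggers mitosis, stood at 52.2, 53.9, 53.1 and 61.7 CPM in adult recipients and 53.4, 62.3 and 46.1 CPM in adult controls. Neonatal levels of Cdk1 were 88.2, 68.4, 81.8 and 83 CPM in neonatal recipients and 77.1, 78.6, 88.7 and 71.5 CPM in neonatal controls. Its ages did not overlap in either comparison, and the log2 fold change was -0.54 ± 0.10 (adjusted p = 0.000159) in recipients and -0.55 ± 0.11 (adjusted p = 0.000783) in controls. Ccnb1, the main cyclin B, had -0.50 ± 0.10 and -0.59 ± 0.11, whereas its paralogue Ccnb2 had -0.09 ± 0.11 (adjusted p = 0.554) and -0.25 ± 0.12 (adjusted p = 0.13) in recipients and controls.

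None of the 3 genes grouped as anaphase-promoting complex partners and degradation passed the threshold in either age comparison. Of all genes, 50.7% passed in either direction in recipients and 30.9% in controls. The median log2 fold change of these 3 genes was 0.07 in recipients and -0.16 in controls. Ube2c, the ubiquitin-conjugating enzyme that primes the complex's substrates, stood at 62.3, 57.2, 56.6 and 82 CPM in adult recipients and 55.1, 62.3 and 46.7 CPM in adult controls. Neonatal levels of Ube2c were 56.3, 51.6, 67.7 and 69.6 CPM in neonatal recipients and 56.7, 56.7, 76.8 and 54.6 CPM in neonatal controls. The groups overlapped throughout, and the log2 fold change was 0.08 ± 0.14 (adjusted p = 0.681) in recipients and -0.16 ± 0.15 (adjusted p = 0.458) in controls. Cdca3, named as a trigger of mitotic entry, stood at 55.8, 53.1, 46.4 and 65.3 CPM in adult recipients and 53.4, 62.4 and 45.8 CPM in adult controls. Neonatal levels of Cdca3 were 50.4, 47.9, 53.5 and 59.1 CPM in neonatal recipients and 50.1, 54.9, 69 and 49.7 CPM in neonatal controls. All 4 groups again overlapped, with a log2 fold change of 0.07 ± 0.12 (adjusted p = 0.675) in recipients and -0.05 ± 0.13 (adjusted p = 0.786) in controls. Cdc20, the activator through which the spindle checkpoint restrains the complex, had -0.06 ± 0.12 (adjusted p = 0.715) and -0.34 ± 0.13 (adjusted p = 0.0556).

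Of the 5 mitotic kinases, 4 were lower in adult hearts in each comparison and Aurka was not past the threshold in either. The lower share of all genes was 26.9% in recipients and 15.4% in controls. Bub1b, the checkpoint kinase BubR1, stood at 32, 30.7, 32.6 and 35.4 CPM in adult recipients and 36.6, 41.9 and 30.8 CPM in adult controls. Neonatal levels of Bub1b were 45.6, 43.5, 44.8 and 42.2 CPM in neonatal recipients and 45.4, 41.8, 54.6 and 47.1 CPM in neonatal controls. Adult recipients lay below all neonatal recipients, while adult control 6 lay just above the lowest neonatal control, and the log2 fold change was -0.43 ± 0.09 (adjusted p = 0.000834) in recipients and -0.38 ± 0.10 (adjusted p = 0.00839) in controls. For Bub1b in controls it was -0.27 without adult control 7 (adjusted p = 0.0597). Plk1, the Polo-like kinase of mitotic entry and spindle assembly, stood at 22.6, 19.8, 21.1 and 28.3 CPM in adult recipients and 23.6, 25 and 21.3 CPM in adult controls. Neonatal levels of Plk1 were 32, 27.7, 37.4 and 30.3 CPM in neonatal recipients and 32.4, 31.1, 34.6 and 31.5 CPM in neonatal controls. Adult recipient 4 slightly exceeded neonatal recipient 2, the controls did not overlap, and the log2 fold change was -0.47 ± 0.11 (adjusted p = 0.00136) in recipients and -0.48 ± 0.12 (adjusted p = 0.00473) in controls. Ttk, the checkpoint kinase MPS1, and Bub1 had log2 fold changes of -0.77 ± 0.16 and -0.63 ± 0.11 in recipients and -0.72 ± 0.17 and -0.60 ± 0.12 in controls. Aurka, the centrosomal Aurora kinase, had -0.22 ± 0.13 (adjusted p = 0.167) and -0.32 ± 0.14 (adjusted p = 0.0874).

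Of the 5 centromere and kinetochore genes, 4 were lower in each comparison and 1 was higher in recipients. Over all genes, 26.9% were lower and 23.8% higher in recipients, and 15.4% were lower in controls. With the length trend removed, 2 of the 5 were lower and 1 higher in recipients, and 1 was lower in controls. The lower share of all genes was then 19.7% in recipients and 13.2% in controls. Cenpa, the histone H3 variant that marks the centromere, was the sole member higher in adult hearts, and stood at 95.7, 101, 91.3 and 112 CPM in adult recipients and 91.5, 103 and 81.8 CPM in adult controls. Neonatal levels of Cenpa were 70.0, 71.3, 83.3 and 82.5 CPM in neonatal recipients and 73.3, 72.2, 101 and 76.9 CPM in neonatal controls. Every adult recipient lay above every neonatal recipient, whereas neonatal control 8 reached the adult control range. The log2 fold change was 0.38 ± 0.11 (adjusted p = 0.0054) in recipients and 0.19 ± 0.11 (adjusted p = 0.226) in controls. Cenpe, the kinesin that carries chromosomes to the spindle equator, stood at 15.9, 16, 19.2 and 20.0 CPM in adult recipients and 22, 23.4 and 19.9 CPM in adult controls. Neonatal levels of Cenpe were 40.5, 34.6, 40.3 and 32.3 CPM in neonatal recipients and 33.9, 36.4, 39.8 and 38.7 CPM in neonatal controls. It was among the 3 members with the lowest values in both comparisons, with no overlap and a log2 fold change of -1.05 ± 0.10 (adjusted p = 2.51e-07) in recipients and -0.77 ± 0.11 (adjusted p = 3.97e-05) in controls.

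Cenpf, a large kinetochore protein that accumulates in G2, stood at 32.9, 26.1, 26.5 and 33 CPM in adult recipients and 38.7, 44.8 and 34.2 CPM in adult controls. Neonatal levels of Cenpf were 45.2, 46, 51.9 and 42.1 CPM in neonatal recipients and 42.3, 45.9, 59.3 and 54.5 CPM in neonatal controls. Adult recipients lay below all neonatal recipients, adult control 6 lay within the neonatal control range, and the log2 fold change was -0.64 ± 0.12 (adjusted p = 0.000176) in recipients and -0.36 ± 0.12 (adjusted p = 0.0321) in controls. The call in controls was lost without adult control 7 (-0.27, adjusted p = 0.151), adult control 5, neonatal control 8 or neonatal control 9 (-0.28 to -0.35, adjusted p = 0.081 to 0.0945), and in a fit of the control libraries alone (adjusted p = 0.0602). Cenpf with the length trend removed had -0.29 in recipients (adjusted p = 0.0408) and -0.26 in controls (adjusted p = 0.107). Ndc80 and Nuf2, which pair in the complex that grips microtubules, had -0.46 ± 0.14 and -0.33 ± 0.10 in recipients and -0.47 ± 0.16 and -0.31 ± 0.11 in controls, and all 4 values passed the threshold. None of the 4 passed with the length trend removed: Ndc80 then had -0.35 (adjusted p = 0.0658) in recipients and -0.43 (adjusted p = 0.054) in controls, and Nuf2 -0.22 (adjusted p = 0.0984) and -0.27 (adjusted p = 0.0865). In controls both calls were also lost without adult control 7 or neonatal control 8 (adjusted p = 0.0756 to 0.219), and that of Nuf2 without adult control 5 or neonatal control 7 (adjusted p = 0.13 and 0.0563).

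The chromosomal passenger complex, which corrects faulty attachments and then moves to the midzone, showed unequal differences among its 4 subunits. Its kinase Aurkb and its scaffold Incenp were lower in adult hearts in both comparisons, with -0.49 ± 0.09 and -0.51 ± 0.09 in recipients and -0.63 ± 0.10 and -0.60 ± 0.10 in controls. Birc5, the survivin subunit that docks the complex to chromatin, stood at 35.1, 36.5, 33.8 and 42.8 CPM in adult recipients and 34.8, 37.5 and 28.6 CPM in adult controls. Neonatal levels of Birc5 were 42.7, 36.6, 44.9 and 44.4 CPM in neonatal recipients and 39.4, 44, 50.9 and 40.1 CPM in neonatal controls. Its controls did not overlap but its recipients did, and the log2 fold change was -0.18 ± 0.10 (adjusted p = 0.149) in recipients and -0.37 ± 0.11 (adjusted p = 0.0168) in controls. Leaving out adult control 7 gave -0.27 in controls (adjusted p = 0.103). Cdca8, the borealin subunit, stood at 39.1, 33.9, 33 and 47.2 CPM in adult recipients and 38.2, 42 and 30.5 CPM in adult controls. Neonatal levels of Cdca8 were 37.5, 32.5, 43.3 and 41.2 CPM in neonatal recipients and 40.7, 41.1, 48.5 and 36.1 CPM in neonatal controls. These 4 groups overlapped, with a log2 fold change of -0.01 ± 0.13 (adjusted p = 0.969) in recipients and -0.17 ± 0.14 (adjusted p = 0.362) in controls.

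Spindle motors and assembly factors were lower in adult hearts for 6 of 8 members in each comparison, against 26.9% of all genes in recipients and 15.4% in controls. The median of these members was -0.66 in recipients and -0.56 in controls. With the length trend removed, 6 were lower in recipients and 5 in controls, against 19.7% and 13.2% of all genes. Tpx2, which activates Aurora A and nucleates spindle microtubules, stood at 38.3, 39.6, 40.2 and 47.5 CPM in adult recipients and 40.7, 44.4 and 37.5 CPM in adult controls. Neonatal levels of Tpx2 were 65.2, 53.7, 63.8 and 61.3 CPM in neonatal recipients and 59.6, 57.9, 63.5 and 56 CPM in neonatal controls. Its adult and neonatal libraries did not overlap, and the log2 fold change was -0.56 ± 0.08 (adjusted p = 2.61e-05) in recipients and -0.54 ± 0.09 (adjusted p = 0.000261) in controls. Kif11, the motor that pushes spindle poles apart, stood at 28.7, 30.3, 30.3 and 33 CPM in adult recipients and 37.8, 42.7 and 32.3 CPM in adult controls. Neonatal levels of Kif11 were 52.3, 50.5, 53.5 and 52 CPM in neonatal recipients and 50.6, 51.6, 66 and 57.5 CPM in neonatal controls. No overlap between the ages was seen here either, with a log2 fold change of -0.77 ± 0.09 (adjusted p = 2.86e-06) in recipients and -0.59 ± 0.10 (adjusted p = 0.000263) in controls. Kif15, a motor that can help hold the bipolar spindle, had the lowest log2 fold change of the members in controls, and stood at 8.56, 8.62, 9.05 and 10.6 CPM in adult recipients and 11.2, 12 and 9.66 CPM in adult controls. Neonatal levels of Kif15 were 18.8, 17.1, 20.1 and 19.2 CPM in neonatal recipients and 18.4, 19.1, 21.5 and 20.7 CPM in neonatal controls. Each neonatal library exceeded each adult one, and the log2 fold change was -1.03 ± 0.10 (adjusted p = 2.97e-07) in recipients and -0.87 ± 0.10 (adjusted p = 1.09e-05) in controls.

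Aspm, which focuses microtubules at spindle poles, stood at 14.8, 13.9, 15.4 and 14.8 CPM in adult recipients and 19.3, 26.5 and 19.7 CPM in adult controls. Neonatal levels of Aspm were 25.7, 26.1, 27.8 and 23.6 CPM in neonatal recipients and 22, 28.4, 33.2 and 31.3 CPM in neonatal controls. Adult control 6 lay within the neonatal control range while adult recipients were below every other library, and the log2 fold change was -0.81 ± 0.12 (adjusted p = 2.52e-05) in recipients and -0.40 ± 0.13 (adjusted p = 0.0232) in controls. The call of Aspm in controls was lost without adult control 5, adult control 7, neonatal control 8 or neonatal control 9 (-0.31 to -0.35, adjusted p = 0.0619 to 0.127), and in a fit of the control libraries alone (adjusted p = 0.0859). Aspm with the length trend removed had -0.48 in recipients (adjusted p = 0.00169) and -0.30 in controls (adjusted p = 0.0548). Kif2c, a microtubule-depolymerising kinesin, and Nusap1, which bundles spindle microtubules, had -0.62 ± 0.10 and -0.70 ± 0.11 in recipients and -0.68 ± 0.10 and -0.58 ± 0.12 in controls. Ckap2l, a spindle protein, stood at 37.6, 36.8, 36 and 43 CPM in adult recipients and 42.8, 48.1 and 34.6 CPM in adult controls. Neonatal levels of Ckap2l were 41.6, 41.8, 40.1 and 44.9 CPM in neonatal recipients and 38.1, 42.3, 53.5 and 41.9 CPM in neonatal controls. Its groups overlapped, with -0.13 ± 0.11 (adjusted p = 0.308) in recipients and -0.07 ± 0.11 (adjusted p = 0.677) in controls, and the chromokinesin Kif4 had -0.22 ± 0.12 (adjusted p = 0.147) and -0.29 ± 0.13 (adjusted p = 0.106).

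Cytokinesis genes were lower in adult hearts for 6 of 6 members in recipients and 4 of 6 in controls, against 26.9% and 15.4% of all genes. With the length trend removed, 4 and 3 were lower, against 19.7% and 13.2% of all genes. Ect2, the exchange factor that switches on RhoA at the equator, had the lowest log2 fold change of the members in recipients, and stood at 9.56, 8.85, 10.4 and 8.34 CPM in adult recipients and 10.6, 17.7 and 11.7 CPM in adult controls. Neonatal levels of Ect2 were 22.7, 21, 19.3 and 19.7 CPM in neonatal recipients and 20.5, 20.5, 26.3 and 25.1 CPM in neonatal controls. Adult recipients averaged 9.30 ± 0.901 CPM, against 20.7 ± 1.51 CPM in neonatal recipients (SD, n = 4 each), and adult controls averaged 13.3 ± 3.82 CPM, against 23.1 ± 3.01 CPM in neonatal controls (SD, n = 3 and 4). Neither pair overlapped, and the log2 fold change was -1.16 ± 0.14 (adjusted p = 2.88e-06) in recipients and -0.79 ± 0.15 (adjusted p = 0.000576) in controls. Anln, the anillin scaffold of the contractile ring, had -0.83 ± 0.13 in recipients and -0.45 ± 0.14 in controls. The control call of Anln was lost without adult control 5, adult control 7 or neonatal control 9 (-0.30 to -0.41, adjusted p = 0.0579 to 0.123).

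Racgap1, which with Kif23 forms centralspindlin, stood at 69.7, 64, 59.8 and 75.6 CPM in adult recipients and 72.5, 76.2 and 62.7 CPM in adult controls. Neonatal levels of Racgap1 were 84.4, 73.6, 89 and 83.5 CPM in neonatal recipients and 78.4, 79.9, 96.3 and 77 CPM in neonatal controls. Adult recipient 4 overlapped the neonatal recipients while the control ranges stood narrowly apart, and the log2 fold change was -0.30 ± 0.09 (adjusted p = 0.0112) in recipients and -0.24 ± 0.10 (adjusted p = 0.0768) in controls. In recipients Racgap1 had -0.15 with the length trend removed (adjusted p = 0.213). Prc1, which bundles the antiparallel microtubules of the midzone, stood at 60.8, 61.8, 61.3 and 72.1 CPM in adult recipients and 68.8, 87.4 and 54.5 CPM in adult controls. Neonatal levels of Prc1 were 84.4, 73.9, 83.5 and 79.5 CPM in neonatal recipients and 71.7, 76.4, 93.1 and 77.7 CPM in neonatal controls. The recipient groups did not overlap and the control groups did, with a log2 fold change of -0.33 ± 0.11 (adjusted p = 0.0229) in recipients and -0.18 ± 0.12 (adjusted p = 0.276) in controls. In recipients the call was lost with the length trend removed (-0.23, adjusted p = 0.131) and without any one of adult recipients 1, 2 and 3 and neonatal recipients 1 and 4 (adjusted p = 0.0529 to 0.0605), and in controls it was gained without adult control 6 (-0.37, adjusted p = 0.0233). Kif23 and Kif20a, the midzone kinesins MKLP1 and MKLP2, had -0.69 ± 0.10 and -0.38 ± 0.11 in recipients and -0.48 ± 0.11 and -0.32 ± 0.12 in controls, and all 4 values passed the threshold. The control call of Kif20a was lost with the length trend removed (-0.28, adjusted p = 0.0832) and without adult control 7 (-0.24, adjusted p = 0.186). It was also lost without adult control 5, neonatal control 7, 8 or 9, adult recipient 1 or 3, or neonatal recipient 1, 2 or 5 (adjusted p = 0.05 to 0.134).

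**Figure D4:**
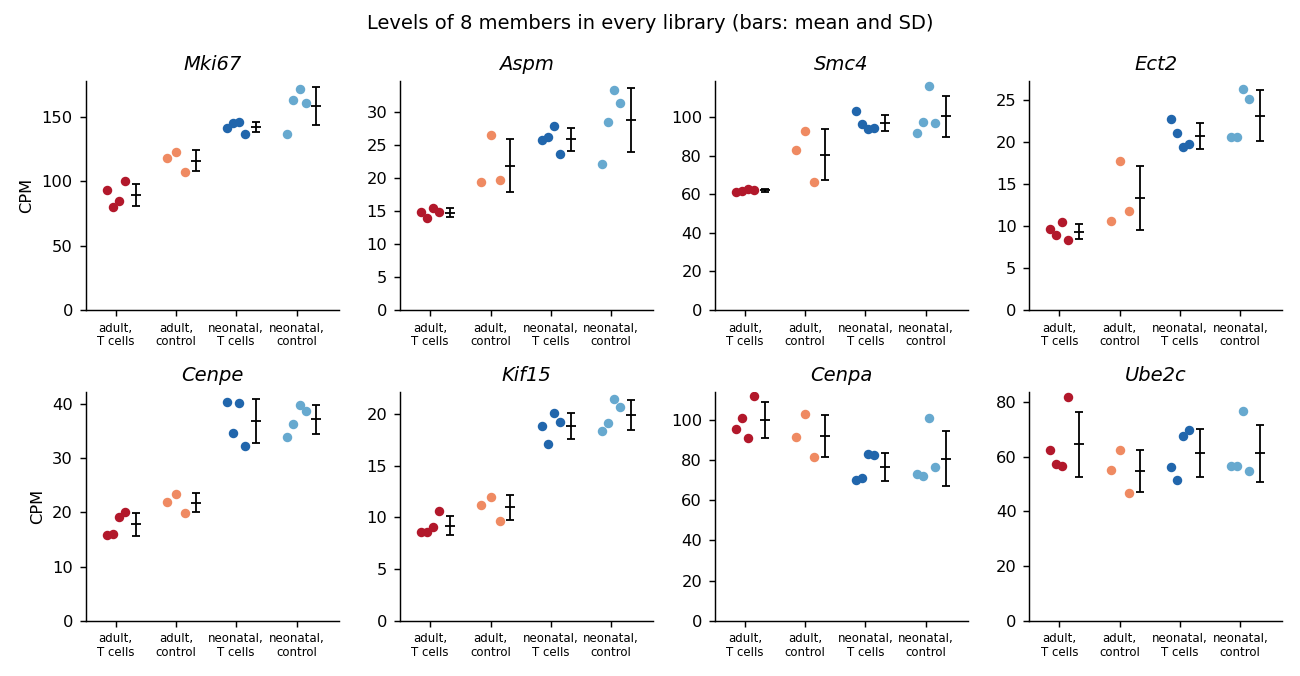
CPM in every library of 8 members, with group means and SD as bars, from adult recipients on the left to neonatal controls on the right. Mki67, Aspm, Smc4, Ect2, Cenpe and Kif15 are lower in adult than in neonatal hearts, Cenpa runs the other way, and Ube2c overlaps in all groups, with a mean of 64.5 CPM in adult recipients and 61.3 CPM in neonatal recipients.

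Other genes of the pathway, from 7 lists of names, differed by age to varying degrees. Over all genes, 26.9% were lower and 23.8% higher in adult recipients, and 15.4% were lower in adult controls. With the length trend removed, 19.7% of all genes were lower in recipients and 13.2% in controls. Of other kinesin and spindle genes, 21 of 27 were lower and 1 higher in adult recipients, against 16 lower and 1 higher in adult controls. Removal of the length trend gave 15 lower and 3 higher in recipients and 13 lower and 1 higher in controls. The augmin subunits Haus6 and Haus8 differed in direction, with -0.74 ± 0.11 and 0.46 ± 0.08 in recipients and -0.67 ± 0.12 and 0.28 ± 0.08 in controls. Kif20b, a kinesin of late cytokinesis, had -0.87 ± 0.10 (adjusted p = 2.27e-06) in recipients. Of other centromere and kinetochore genes, 18 of 26 were lower and 2 higher in recipients and 7 lower in controls, and with the trend removed 15 were lower and 2 higher in recipients and 7 lower in controls. Cenpc1, which binds Cenpa nucleosomes, had -0.56 ± 0.09 in recipients and -0.49 ± 0.10 in controls.

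Cohesin and condensin II genes were lower for 13 of 16 in adult recipients, with 1 higher, and for 5 of 16 in adult controls. With the length trend removed, 8 were lower and 1 higher in recipients, with a median of -0.25 against -0.45 before, and 5 were lower in controls. Ncapg2, a condensin II subunit, had -1.12 ± 0.13 (adjusted p = 3.14e-06) in recipients and -0.43 ± 0.14 (adjusted p = 0.0291) in controls. Of mitotic entry genes, 13 of 21 were lower and 2 higher in recipients, against 8 lower and 1 higher in controls. With the trend removed, 10 were lower and 2 higher in recipients, with the control counts at 8 and 1. Mastl, the Greatwall kinase, had -1.04 ± 0.16 (adjusted p = 3.43e-05) and -0.86 ± 0.17 (adjusted p = 0.00113), and Mybl2, a partner of MuvB, had -0.64 ± 0.10 (adjusted p = 5.98e-05) and -0.64 ± 0.11 (adjusted p = 0.000371). Foxm1, the transcription factor that drives many of the members, had -0.29 ± 0.11 (adjusted p = 0.0336) and -0.12 ± 0.12 (adjusted p = 0.46). With the trend removed its value in recipients was -0.13 (adjusted p = 0.344).

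Checkpoint and anaphase-promoting complex genes were split, with 11 of 24 lower and 4 higher in recipients and 6 lower and 2 higher in controls. With the length trend removed, more were higher than lower in recipients, 9 against 7, and their median was 0.01, against -0.12 before. In controls 5 were then lower and 3 higher. Pttg1, securin, was higher in adult hearts, with 0.80 ± 0.08 (adjusted p = 6.26e-07) and 0.51 ± 0.09 (adjusted p = 0.000331), and the complex's subunit Cdc27 was lower, with -0.74 ± 0.08 (adjusted p = 6.04e-07) and -0.35 ± 0.08 (adjusted p = 0.00347). Cytokinesis and abscission genes outside the members were lower for 11 of 18 in recipients, with 2 higher, and for 8 of 18 in controls, led by the septin Sept11 at -0.93 ± 0.10 and -0.64 ± 0.11. With the trend removed, 7 were lower and 2 higher in recipients, with a median of -0.03 against -0.30 before, and 6 were lower and 1 higher in controls. DNA replication genes, which act before mitosis, were lower for 7 of 21 in recipients and 9 of 21 in controls, with none higher. The share in recipients was not far above the 26.9% of all genes lower there. The median of these genes was -0.19 in recipients and -0.22 in controls. With the trend removed, 5 were lower and 1 higher in recipients and 9 lower in controls. Tyms, thymidylate synthase, had -0.74 ± 0.08 and -0.71 ± 0.09. The summed CPM of members over that of DNA replication genes was 1.66 to 2.05 in adult recipients and 2.03 to 2.08 in adult controls, against 2.21 to 2.41 in neonatal recipients and 2.12 to 2.52 in neonatal controls.

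Cell type markers moved with age in the same libraries, where 50.7% of all genes tested passed the threshold in recipients and 30.9% in controls. Macrophage markers were lower in adult hearts for 9 of 10 genes in recipients and 7 of 10 in controls, and summed to 156 to 208 CPM in adult recipients, 162 to 205 CPM in adult controls, 475 to 687 CPM in neonatal recipients and 194 to 605 CPM in neonatal controls. Neutrophil markers were lower for 5 of 6 in recipients and for none in controls, and endothelial markers were higher for 6 of 8 in recipients and 5 of 8 in controls. Cardiomyocyte markers were higher for 8 of 10 and lower for 1 in recipients, and higher for 3 of 10 in controls. They summed to 65544 to 73244 CPM in adult recipients and 55299.9 to 57507 CPM in adult controls, against 43145 to 52990.1 CPM in neonatal recipients and 47637 to 51607 CPM in neonatal controls. RNA of cardiomyocyte markers was thus abundant in every library. The part of cell composition in the age difference was not tested.

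In adult hearts, T cell transfer was accompanied by lower RNA of 4 members: Aspm, Mki67, Smc4 and Ect2. They are 9.52% of the 42, against 8.55% of all genes past the threshold in either direction and 5.03% lower, so the share of members was near the background. At an unadjusted p under 0.05 there were 11 members (26.2%), against 27.3% of all genes, and CPM ranges of 5 members (11.9%) did not overlap, against 25.1%. The members' median log2 fold change, recipients over controls, was -0.06, against -0.00 over all genes, and 27 of 42 were negative (50.3% of all genes were).

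Aspm (chr1:139454188-139494088) had 14.8, 13.9, 15.4 and 14.8 CPM in adult recipients, against 19.3, 26.5 and 19.7 CPM in adult controls. The recipients were tightly grouped below all controls, with a log2 fold change of -0.57 ± 0.13 (adjusted p = 0.0206). Mki67 (chr7:135689784-135716450) had 92.9, 80.3, 84.7 and 99.9 CPM in recipients, against 118, 123 and 107 CPM in controls. These ranges were separate as well, with -0.37 ± 0.09 (adjusted p = 0.0211). Smc4 (chr3:69004738-69034623) had 61.2, 61.8, 62.9 and 62.3 CPM in recipients, against 82.9, 92.6 and 66.3 CPM in controls. All 4 recipients lay below the lowest control, library 7, with -0.38 ± 0.10 (adjusted p = 0.0268). Ect2 (chr3:27097222-27154253) had 9.56, 8.85, 10.4 and 8.34 CPM in recipients, against 10.6, 17.7 and 11.7 CPM in controls, and library 6 was well above the other two controls, with -0.52 ± 0.15 (adjusted p = 0.0412). Cenpf did not pass the threshold, at -0.40 ± 0.12 (adjusted p = 0.0511), though its ranges did not overlap.

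The other members did not pass the threshold. Among those at an unadjusted p under 0.05 were the condensin arm Smc2 at -0.33 ± 0.11 (adjusted p = 0.0619), the motors Kif11 at -0.30 ± 0.10 (adjusted p = 0.0639), Kif15 at -0.25 ± 0.11 (adjusted p = 0.142) and Cenpe at -0.29 ± 0.11 (adjusted p = 0.0859), and the ring genes Anln at -0.37 ± 0.14 (adjusted p = 0.106) and Kif23 at -0.29 ± 0.11 (adjusted p = 0.0954). By role, all 7 chromosome structure genes and all 6 cytokinesis genes had negative values, with medians of -0.13 and -0.21. The 4 passenger complex genes and the 3 anaphase-promoting complex and degradation genes had positive ones, with medians of 0.07 and 0.17. With the length trend removed, the medians of these roles, in the order named, were -0.09, -0.19, 0.06 and 0.06. Ube2c had the highest value of the members, 0.24 ± 0.15 (adjusted p = 0.339), and Cdk1 and Ccnb1 had 0.04 ± 0.10 and 0.00 ± 0.11.

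The size and sign of the members' differences in this comparison were related to transcript length. Across the 42 members the Spearman correlation of log2 fold change with the longest transcript was -0.64, and over 15480 genes it was -0.45. The 21 members with shorter transcripts (1531 to 3668 bases) had a median of 0.00 and none past the threshold, and the 21 with longer ones (3674 to 11130 bases) had a median of -0.13 and held all 4. Within single libraries, the Spearman correlation of a gene's deviation from its mean with its length was -0.34 to -0.21 in adult recipients and 0.03 to 0.13 in adult controls, so the groups differed in this property of the libraries. With each library's length trend removed, no member and 0% of genes passed the threshold, the values of Aspm, Mki67, Smc4 and Ect2 were -0.31, -0.11, -0.30 and -0.46, and the correlation over members was -0.20. The calls of all 4 were also lost without adult control 5, without adult control 6 and without adult recipient 4. Those of Mki67, Smc4 and Ect2 were lost without adult recipient 2, whereas without adult control 7 there were 8 calls. Ect2 also lost its call with limma voom (adjusted p = 0.0794) and in an edgeR fit of the adult libraries alone (adjusted p = 0.0527). That call was further lost without adult recipient 1 or neonatal recipient 4 (adjusted p = 0.0603 and 0.0506). Cardiomyocyte markers summed higher in adult recipients than in adult controls, in the ranges given above, with 4 of 10 higher and 1 lower, and their part in these 4 calls was not tested.

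**Figure D5:**
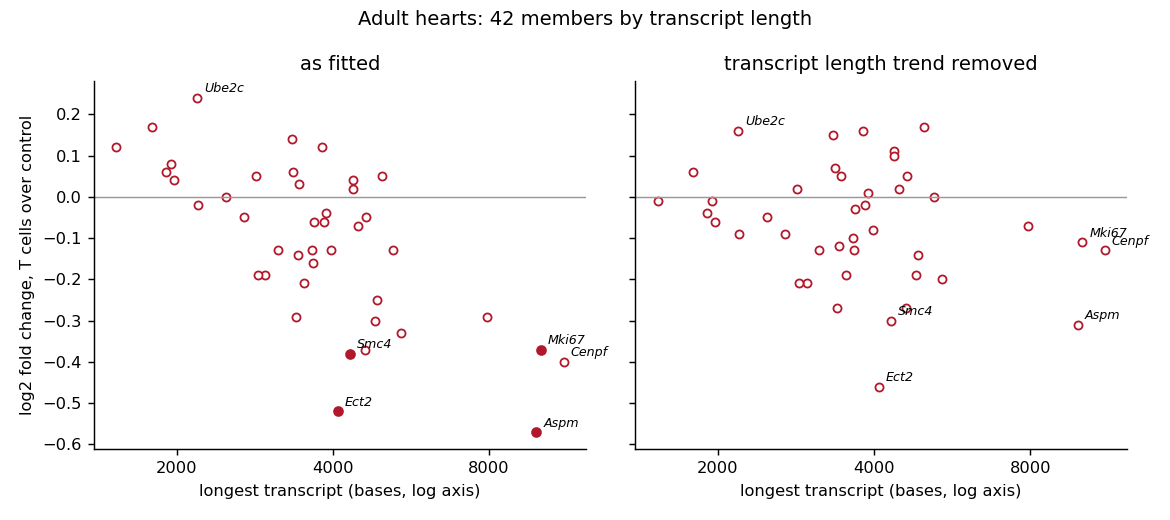
Log2 fold change of 42 members in adult hearts, T cell recipients over controls, against the longest transcript of each gene on a log axis, as fitted (left) and with each library's length trend removed (right). Filled points passed an adjusted p of 0.05; the longest transcripts, among them Aspm, Mki67 and Cenpf, lie among the lowest on the left and nearer 0 on the right, where none passed.

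Related genes in adult hearts showed the same mixture, where 8.55% of all genes passed in either direction and 5.03% were lower. Of cohesin and condensin II genes, 5 of 16 were lower and none higher, among them Ncapg2 at -0.60 ± 0.14 (adjusted p = 0.0232) and the cohesin regulators Pds5a and Pds5b at -0.40 ± 0.07 (adjusted p = 0.018) and -0.33 ± 0.09 (adjusted p = 0.0323). Lin54, the MuvB subunit that contacts the CHR, was lower at -0.58 ± 0.14 (adjusted p = 0.0239), as were the Cenpa chaperone Hjurp at -0.32 ± 0.08 (adjusted p = 0.0309) and the abscission gene Cep55 at -0.42 ± 0.11 (adjusted p = 0.0268). Higher were the small subunits Anapc11 and Anapc13 of the anaphase-promoting complex, at 0.36 ± 0.08 (adjusted p = 0.021) and 0.37 ± 0.10 (adjusted p = 0.0309), and the ESCRT-III genes Chmp2a and Chmp4b, at 0.33 ± 0.09 (adjusted p = 0.0284) and 0.27 ± 0.08 (adjusted p = 0.0379). Its larger subunit Cdc27 was lower at -0.35 ± 0.08 (adjusted p = 0.021). None of 27 other kinesin and spindle genes and none of 21 DNA replication genes passed. These calls, too, were absent once the length trend was removed.

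In neonatal hearts, T cell transfer was not accompanied by a detectable change of any member. None of 42 passed the threshold, none of all genes did (0%), and at an unadjusted p under 0.05 there were 0 members against 513 genes (3.12%). DESeq2 and limma voom likewise called no gene. The members' log2 fold changes, recipients over controls, lay between -0.16 and 0.04 with a median of -0.06, and 36 of 42 (85.7%) were negative, against 50.1% of all genes. CPM ranges overlapped for all 42, whereas 1.36% of all genes had separate ranges. The median standard error of a member was 0.105. Mki67 had the smallest unadjusted p among the members, with 141, 145, 146 and 137 CPM in neonatal recipients, against 137, 163, 172 and 161 CPM in neonatal controls, and -0.15 ± 0.08 (adjusted p = 0.999). Ect2, Aspm and Ttk had -0.16 ± 0.13, -0.16 ± 0.12 and -0.14 ± 0.15, all with overlapping ranges, and Cdk1 and Cenpe had 0.02 ± 0.10 and -0.01 ± 0.09.

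The negative sign of most members in neonatal hearts came with 1 library. Without neonatal control 8 the median was 0.01 and 19 of 42 members were negative. Ube2c averaged 61.3 ± 8.73 CPM in neonatal recipients and 61.2 ± 10.5 CPM in neonatal controls (SD, n = 4 each), and neonatal control 8 alone stood at 76.8 CPM against 54.6 to 56.7 CPM in the other controls. None of the genes in the 7 lists passed the threshold in neonatal hearts. Markers of T cells summed to 7.56 to 10.9 CPM in adult recipients, 5.88 to 8.25 CPM in adult controls, 3.31 to 4.94 CPM in neonatal recipients and 3.26 to 5.75 CPM in neonatal controls, and Cd8b1 was listed at 0 CPM in 2 neonatal recipients. Cd3e lay between 0.0303 and 0.455 CPM over all libraries. Cd4 alone of 7 T cell markers tested was higher in adult recipients than in adult controls, with a log2 fold change of 1.05 ± 0.31 (adjusted p = 0.0443). With the length trend of each library removed, none of these 7 passed.

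The effect of T cells was also compared directly between the ages, as the adult log2 fold change minus the neonatal one. No member and no other gene (0%) passed the threshold; limma voom called none either, and DESeq2 called 174 genes, none of them a member. At an unadjusted p under 0.05 there were 3 members (7.14%), against 15.3% of all genes: Aspm at -0.41 ± 0.17 (adjusted p = 0.269), Smc2 at -0.34 ± 0.15 (adjusted p = 0.285) and Smc4 at -0.32 ± 0.13 (adjusted p = 0.253). The members' median was -0.03, against -0.01 over all genes, with 24 of 42 negative (51.1% of all genes) and a range from -0.41 for Aspm to 0.28 for Cdc20. Ect2 and Mki67 had -0.36 ± 0.20 (adjusted p = 0.388) and -0.22 ± 0.12 (adjusted p = 0.377). The lower values of 4 members in adult recipients are therefore not shown to differ from the neonatal comparison. These calls were a share of the members near that of all genes, and none passed with the length trend removed. For no member was the age difference shown to depend on T cell transfer.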

How the data were processed

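The authors deposited 1 table of expected counts per gene (reads split into fractions, 61.1% of non-zero values whole) for 15 libraries, not scaled. Per the labels' protocols, RNA came from an RNeasy Plus Micro kit and oligo-dT capture (TruSeq Stranded mRNA). Per the submitters' processing notes, tools were bcl2fastq 2.20.0.422, cutadapt 2.5, STAR 2.7.2b, featureCounts 1.6.4 and DESeq2 1.24.0, and the build GRCm38.p6; the strand setting and the rule for fractions are not given in the sources used here. Totals were 21871617 to 34302786 counts, for which a floor of 3 counts is 0.0875 to 0.137 CPM.

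Counts were rounded to whole numbers, filtered with filterByExpr (minimum count 10, minimum total 15; 16437 genes) and tested with edgeR 4.0.16 (R 4.3.3; TMM, robust quasi-likelihood fit of all 15 libraries, 1 coefficient per group), with Benjamini-Hochberg adjustment over all genes and a threshold of 0.05. Standard errors are the size of the log2 fold change over the square root of F. CPM use TMM-scaled totals. Alternatives used DESeq2 1.42.0, limma 3.58.1, other scalings, filters and roundings, a length trend per library (spline with 5 degrees of freedom on the longest GENCODE M21 transcript, 15480 genes) and leaving out each library. The fit was tested on simulated data.

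Groups come from the sample titles. The labels do not say whether libraries are separate animals, so p-values measure the spread between these libraries, which may be technical. Members and lists were chosen with earlier results of these data known. Values in every library are given for the 2 members per role with the highest CPM, members past the threshold in a T cell comparison, and the 3 highest and 3 lowest log2 fold changes per age comparison. Of each list, up to 3 genes with the smallest adjusted p past the threshold in a comparison are named, and their values may be given in the other comparisons. Foxm1, Cd4, Cd8b1 and Cd3e are named outside this rule.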

Additional observations from a re-analysis of the deposited data

Results flagged for a closer look

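Sets of 4 libraries were examined for 126 pairs of 1 member and 1 group and for the summed CPM of the members in 3 groups, 129 sets in all. In 10 of them, all of a single member, 1 library stood farther from the others than Dixon's 95% limit allows. Chance alone gives about 1 in 20 independent sets. The sets here are not independent, because members moved together from library to library, so the 10 cannot be held against that rate. In 8 of the 10 the library was neonatal control 8. It had 129 CPM of Ccna2 (other neonatal controls 97.9 to 99.1 CPM), 45.5 CPM of Ccnb1 (35.5 to 37.2), 54.6 CPM of Ccnb2 (40.7 to 42.3) and 76.8 CPM of Ube2c (54.6 to 56.7). It likewise had 101 CPM of Cenpa (72.2 to 76.9), 25.5 CPM of Ndc80 (17.2 to 18.1), 41.5 CPM of Nusap1 (30.2 to 31.3) and 96.3 CPM of Racgap1 (77.0 to 79.9). In the other two, the library was adult recipient 4, with 26.3 CPM of Nuf2 (other adult recipients 21.9 to 22.4 CPM) and 72.1 CPM of Prc1 (60.8 to 61.8).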

How the results depend on the processing

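In adult hearts, the 4 members past the threshold after T cell transfer became 7 with DESeq2 and 3 with limma voom. They became 0 with the length trend of each library removed, and 0 to 8 when single libraries were left out. In controls, the 30 members that differed by age became 20 to 34 when single libraries were left out, and in recipients the 33 became 31 to 34. In neonatal hearts and in the difference between the T cell effects no member passed under any alternative run. With the length trend removed, 24 members differed by age in controls and 28 in recipients. No member named above reversed its direction while past the threshold. The labels do not say whether the replicate numbers pair libraries. Deviations of same-numbered libraries correlated at 0.07, 0.11 and -0.07 in recipients and at -0.06 and 0.31 in controls. The best match had the same number for 2 in recipients and 7 in controls. So few correlations cannot settle the question. With the number as a replicate block, 19 members differed by age in controls and 32 in recipients. In that fit only numbers found at both ages inform the age difference. These are 6 and 7 in controls and 1, 2 and 4 in recipients. The counts therefore rest on fewer libraries and cannot be compared directly with those above. No paired analysis was possible because the groups share no numbers in the T cell comparisons. Depth was not limiting for any member, the lowest count being 121, whereas T cell markers lay near the floor. The number of libraries, 3 or 4 per group, limits the differences that could be seen.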
